A study of Mus musculus with 6 samples.

Results

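The genes of the cytosolic ribosomal proteins were examined for ATAC-seq peaks at their promoters in 3 mouse cell lines. Members were the protein-coding genes of the mm9 annotation with a symbol of the form Rpl or Rps and a number, plus *Rplp0*, *Rplp1*, *Rplp2* and *Rpsa*. Of 150 symbols that matched, 55 copies named as pseudogenes and 11 genes of the *Rps6k* and *Rps19bp* names were removed, which left 84 of the 22359 protein-coding genes. A member counted as having a peak where a called peak lay within 1 kb of a start site of one of its protein-coding transcripts. Where several peaks did so, the one with the highest pileup was taken.

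The study modelled how chromatin folds around *Pax6* and used the accessible sites of each cell line as input. Pax6-HIGH cells (Beta-TC3) are a pancreatic β cell insulinoma line, Pax6-ON cells (MV+) are cultured lens epithelial cells from a wild-type C57BL6 mouse, and Pax6-OFF cells (RAG) are a renal adenocarcinoma line of BALB/c origin. All were grown in the same medium, and each group is 1 line with no second line of its tissue. In ATAC-seq, the Tn5 transposase inserts adapters into accessible DNA, so that sequenced fragments pile up where chromatin is open. The authors called peaks once per line on both replicates together (2 each), so the values below have no replicate error and no difference between cell lines was tested. Intervals given with values are exact 95% intervals that cover counting error only. The nuclei buffer contained 0.1% NP40, except for Pax6-ON cells with 0.2%. Buffer and cell line cannot be told apart.

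Ribosomal proteins are the structural partners of the ribosomal RNAs. The Rps proteins build the small subunit, which decodes the mRNA, and the Rpl proteins build the large subunit, which joins amino acids and holds the exit tunnel. The genes are scattered over the genome, are among the most highly transcribed in growing cells of every type, and are needed in matched amounts. Their promoters are known for lying in CpG-rich DNA, for lacking a strict TATA box in many cases, and for starting transcription at a C within a run of pyrimidines. This run forms the oligopyrimidine tract at the cap of the mRNA, through which mTOR signalling controls translation. Several members host small nucleolar RNAs in their introns, and most have left processed pseudogenes behind.

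The promoter sequences of members at both ends of the range are shown so that the peaks can be set beside the DNA around an annotated start. Each runs 5′ to 3′ on the strand of the gene, from 60 bases before the annotated start to the first 20 bases of the transcript, in mm9 (NCBIM37). Capitals mark the stretches of at least 8 C or T inside the window from 30 bases before to 20 bases after the start, also where a run reaches beyond that window, and the letters CCGGAAG (or CTTCCGG on the other strand), a core to which ETS factors such as GABP are known to bind. The first set holds the 5 members with the highest mean pileup percentile among those with a peak in every cell line.

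Rpl37, chr15:5066553-5066632, plus strand: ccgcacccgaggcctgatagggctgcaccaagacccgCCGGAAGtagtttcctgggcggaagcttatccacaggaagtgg
Rps29, chr12:70260154-70260233, minus strand: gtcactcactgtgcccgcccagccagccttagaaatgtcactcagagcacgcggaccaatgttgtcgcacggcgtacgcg
Rpl15, chr14:19103562-19103641, minus strand: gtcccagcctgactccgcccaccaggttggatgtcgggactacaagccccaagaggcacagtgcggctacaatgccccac
Rps23, chr13:91062667-91062746, plus strand: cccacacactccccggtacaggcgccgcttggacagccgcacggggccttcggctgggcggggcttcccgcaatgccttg
Rps21, chr2:179992022-179992101, plus strand: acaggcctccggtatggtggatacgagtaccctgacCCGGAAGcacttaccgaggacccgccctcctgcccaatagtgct

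The next set holds 4 of the 5 members with the lowest mean pileup percentile among those with a peak in every cell line. The Pax6-ON peak of *Rpl30*, at chr15:34373002-34373288, lay outside the stretch printed for it.

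Rpl30, chr15:34373376-34373455, minus strand: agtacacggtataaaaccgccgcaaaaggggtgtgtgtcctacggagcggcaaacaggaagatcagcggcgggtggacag
Rpl7, chr1:16094724-16094803, minus strand: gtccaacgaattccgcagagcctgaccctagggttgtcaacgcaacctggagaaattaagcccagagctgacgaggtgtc
Rps27a, chr11:29448090-29448169, minus strand: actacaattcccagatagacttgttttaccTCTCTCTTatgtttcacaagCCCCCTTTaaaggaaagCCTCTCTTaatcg
Rpl5, chr5:108329461-108329540, plus strand: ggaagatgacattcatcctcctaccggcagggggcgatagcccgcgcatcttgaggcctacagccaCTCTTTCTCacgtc

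The last set holds the 15 members with no peak in any cell line.

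Rpl10l, chr12:67385369-67385448, minus strand: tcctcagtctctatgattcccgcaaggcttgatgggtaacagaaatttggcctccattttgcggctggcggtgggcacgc
Rpl11, chr4:135609289-135609368, minus strand: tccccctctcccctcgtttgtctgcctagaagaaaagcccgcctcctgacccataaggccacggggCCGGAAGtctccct
Rpl23, chr11:97643732-97643811, minus strand: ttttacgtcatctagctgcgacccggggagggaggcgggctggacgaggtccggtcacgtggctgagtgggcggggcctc
Rpl23a, chr11:77997067-77997146, minus strand: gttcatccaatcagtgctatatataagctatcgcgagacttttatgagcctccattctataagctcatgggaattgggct
Rpl26, chr11:68715025-68715104, plus strand: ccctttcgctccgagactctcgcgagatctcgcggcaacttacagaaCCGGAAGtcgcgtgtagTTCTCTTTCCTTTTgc
Rpl3, chr15:79913817-79913896, minus strand: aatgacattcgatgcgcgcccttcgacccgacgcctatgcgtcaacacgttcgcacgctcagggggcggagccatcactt
Rpl39l, chr16:10170261-10170340, plus strand: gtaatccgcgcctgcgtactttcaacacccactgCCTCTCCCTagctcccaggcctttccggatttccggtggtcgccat
Rpl3l, chr17:24864714-24864793, plus strand: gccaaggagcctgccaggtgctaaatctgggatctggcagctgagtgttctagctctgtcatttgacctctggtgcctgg
Rpl4, chr9:64021134-64021213, plus strand: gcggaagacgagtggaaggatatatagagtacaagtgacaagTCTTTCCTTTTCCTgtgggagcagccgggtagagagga
Rpl6, chr5:121654430-121654509, plus strand: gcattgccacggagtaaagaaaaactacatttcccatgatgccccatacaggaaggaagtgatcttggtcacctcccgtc
Rpl8, chr15:76734441-76734520, plus strand: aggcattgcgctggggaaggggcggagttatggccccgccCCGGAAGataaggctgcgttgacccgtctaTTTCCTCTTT
Rps15, chr10:79755138-79755217, plus strand: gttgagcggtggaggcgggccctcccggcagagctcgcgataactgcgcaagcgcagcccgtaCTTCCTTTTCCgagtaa
Rps28, chr17:33961488-33961567, minus strand: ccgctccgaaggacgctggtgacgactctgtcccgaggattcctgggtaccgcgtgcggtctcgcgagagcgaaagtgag
Rps4x, chrX:99384714-99384793, minus strand: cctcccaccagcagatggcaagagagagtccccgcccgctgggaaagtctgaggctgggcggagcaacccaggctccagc
Rps4y2, chr6:148303118-148303197, plus strand: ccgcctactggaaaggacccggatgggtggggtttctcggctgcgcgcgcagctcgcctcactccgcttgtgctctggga

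The letters CCGGAAG stood in 2 of the first 5 sequences, in *Rpl37* and *Rps21*. They also stood in *Rpl11*, *Rpl26* and *Rpl8*, which had no peak. Long pyrimidine runs marked 2 of the second set and 5 of the last. Both kinds of capitals were thus found with and without peaks.

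The files list 100254099 fragments in Pax6-HIGH cells, 130955836 in Pax6-ON cells and 102223606 in Pax6-OFF cells. They held 28024, 9821 and 14022 peaks in that order, so Pax6-ON cells had the most fragments and the fewest peaks. The lowest pileup of any called peak, that is the number of fragments stacked at its summit, was 25 in Pax6-HIGH cells, 30 in Pax6-ON cells and 25 in Pax6-OFF cells. A promoter below these levels is counted as having no peak, which does not show that it was closed. Of 8 markers of β cells, 5 had a promoter peak in Pax6-HIGH cells (*Isl1*, *Mafa*, *Neurod1*, *Nkx2-2* and *Nkx6-1*), while *Ins1*, *Ins2* and *Pdx1* had none. Of 8 lens markers, *Pax6* and *Prox1* had a peak in Pax6-ON cells, and *Foxe3*, *Pitx3* and the crystallins had none there. Of 8 renal markers, *Cdh16*, *Emx2*, *Pax2* and *Sim1* had a peak in Pax6-OFF cells and *Pax8* had none. The markers crossed between lines. Pax6-ON cells had a peak at 3 β cell markers (*Isl1*, *Mafa* and *Nkx6-1*), more than at lens markers, and at the renal marker *Emx2*. *Mafa* also had one in Pax6-OFF cells, as did the lens crystallin *Cryab*, and *Pax6*, *Prox1* and the renal marker *Sim1* had one in Pax6-HIGH cells.

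Ribosomal protein promoters carried a called peak in most cases in Pax6-HIGH cells and in few cases in Pax6-ON cells. A peak was found at 65 of 84 members in Pax6-HIGH cells (77.4%), where 45.9% of all protein-coding genes had one. In Pax6-OFF cells 43 members had a peak (51.2%, against 35.7% of all genes). In Pax6-ON cells 11 members had one (13.1%, against 21.2% of all genes). The members' share was thus above the share of all genes in Pax6-HIGH and Pax6-OFF cells and below it in Pax6-ON cells. The order of Pax6-HIGH and Pax6-OFF cells rested on the number of peaks called. With each file reduced to the 9821 peaks of smallest q-value, 26 members had a peak in Pax6-HIGH cells (31.0%, against 27.7% of all genes). The counts were 29 in Pax6-OFF cells (34.5%, against 30.4%) and 11 in Pax6-ON cells. The members' share was then close to that of all genes in Pax6-HIGH and Pax6-OFF cells and still lower in Pax6-ON cells.

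**Figure D1:**
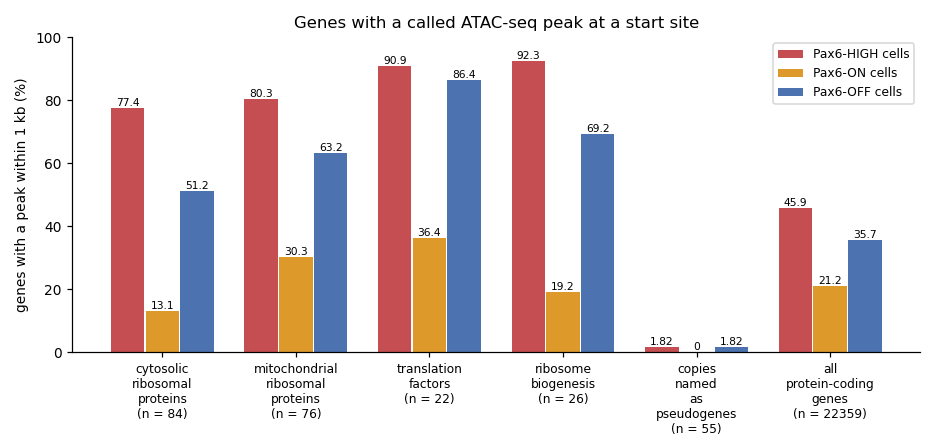
Bars give the percent of genes with a called peak within 1 kb of a start site (y axis) for the cytosolic ribosomal proteins, 4 other gene lists and all protein-coding genes (x axis, n in brackets), with 1 bar per cell line and replicates pooled. Cytosolic ribosomal proteins reach 77.4% in Pax6-HIGH but 13.1% in Pax6-ON cells, while copies named as pseudogenes stay at 1.82% or 0.

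The small and the large subunit had like shares. Without the 8 paralog genes, 26 of 31 small subunit genes and 36 of 45 large subunit genes had a peak in Pax6-HIGH cells. The counts were 15 of 31 and 24 of 45 in Pax6-OFF cells, and 5 of 31 and 6 of 45 in Pax6-ON cells.

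The Pax6-ON peaks of members lay within the set shared by the other lines, as did most Pax6-ON peaks among all genes. Of the 4740 genes with a Pax6-ON peak, 3873 had a peak in every line. Each of the 11 members with a peak in Pax6-ON cells also had one in both other lines (13.1% of members, against 17.3% of all genes with a peak in every line). Among these were *Rpl5*, *Rpl7*, *Rpl15*, *Rpl21*, *Rpl30* and *Rpl37* of the large subunit and *Rps21*, *Rps23*, *Rps27a* and *Rps29* of the small subunit. A further 28 members had a peak in Pax6-HIGH and Pax6-OFF cells, which was the pattern of 15.4% of all genes. The Pax6-HIGH peak was the only one of 26 members (31.0%, against 10.9% of all genes). No member had a peak in Pax6-ON cells together with just 1 other line, a pattern that was also rare among all genes (2.27% with Pax6-HIGH and 0.546% with Pax6-OFF).

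**Figure D2:**
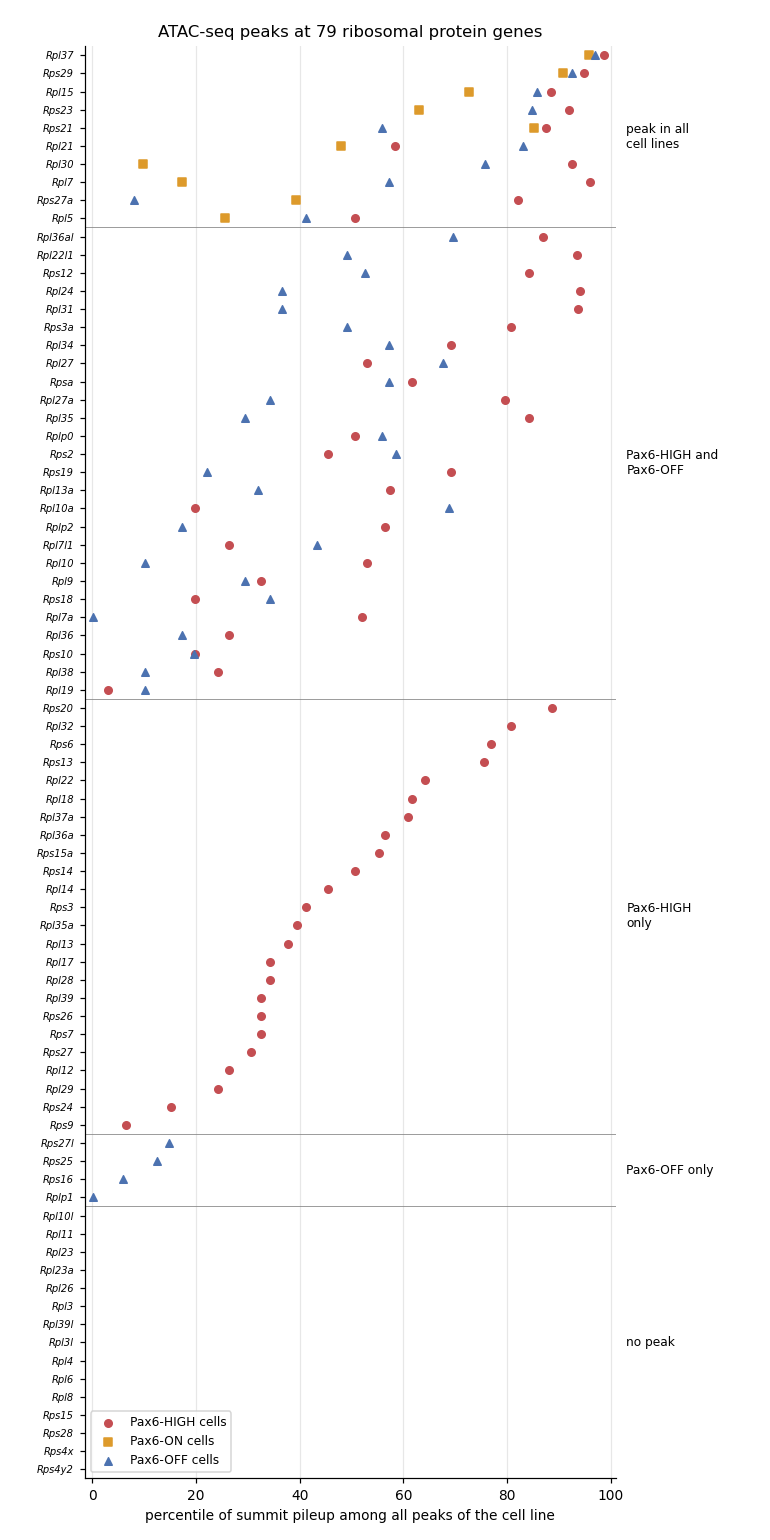
Points give, for 79 of the 84 members (y axis), the percentile of its summit pileup among all peaks of the same cell line (x axis, 0 to 100), with circles for Pax6-HIGH, squares for Pax6-ON and triangles for Pax6-OFF cells. Rows are grouped by the lines with a peak, and the 10 shown with a peak in every line lie above the 26, 24, 4 and 15 shown of the other groups.

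*Rpl37*, a zinc-binding protein of the large subunit, had the strongest promoter in every cell line. Its pileup was 274 fragments (243 to 308) in Pax6-HIGH cells, 165 (141 to 192) in Pax6-ON cells and 148 (125 to 174) in Pax6-OFF cells. These peaks ranked 361st, 408th and 418th in their files. Their percentiles, that is the share of the file's peaks with a lower pileup, were 98.7, 95.8 and 96.9.

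*Rps29*, a small zinc-binding protein of the small subunit, came next by mean percentile, with pileups of 173 (148 to 201), 125 (104 to 149) and 112 (92.2 to 135) in the same order. Its percentiles were 94.8, 90.8 and 92.6, and in Pax6-HIGH cells *Rpl7* stood above it at 96.0. *Rpl37* and *Rps29* were the only members in the top 10% of the file in every line. For *Rps29* the summits lay 135, 137 and 135 bp before the start, nearly the same base in each line.

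*Rpl15*, *Rps23* and *Rps21* followed, with mean percentiles of 82.3, 79.9 and 76.2. *Rpl15* had pileups of 126 in Pax6-HIGH cells, 82 in Pax6-ON cells and 89 in Pax6-OFF cells. *Rps23*, which sits at the decoding centre, had 147, 71 and 87 fragments. *Rps21* was lower in Pax6-OFF than in Pax6-ON cells, with 121, 105 and 54 fragments. For this gene the percentile in Pax6-OFF cells was 55.9, against 87.5 and 85.1 in the others. *Rpl15* shares its promoter region with *Nkiras1*, whose start lay within 1 kb, so its peak cannot be assigned to either gene.

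Among the lowest of the 11 were *Rpl5*, *Rps27a*, *Rpl7* and *Rpl30*, with mean percentiles of 39.2, 43.1, 56.8 and 59.3. *Rpl5*, which carries the small rRNA of the large subunit into the ribosome, was low throughout, with 55 fragments in Pax6-HIGH cells, 48 in Pax6-ON cells and 46 in Pax6-OFF cells. *Rps27a*, which encodes a fusion of ubiquitin and a ribosomal protein, had 103, 55 and 32 fragments, and its Pax6-OFF peak stood at a percentile of 8.03. The start of *1700034F02Rik* lay within 1 kb of it. *Rpl30* was high in Pax6-HIGH cells with 150 fragments, intermediate in Pax6-OFF cells with 72 and near the lowest called level in Pax6-ON cells with 40. *Rpl7* had 190, 44 and 55 fragments. *Rpl21*, in the middle of the order, had 62, 60 and 83 fragments.

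A peak in no cell line was found for 15 members (17.9%, against 50.0% of all genes). Of these, 11 encode core subunits: *Rpl3*, *Rpl4*, *Rpl6*, *Rpl8*, *Rpl11*, *Rpl23*, *Rpl23a*, *Rpl26*, *Rps4x*, *Rps15* and *Rps28*. *Rpl11* is the partner of *Rpl5* in the particle that binds Mdm2 under nucleolar stress, and *Rpl23a* and *Rpl26* line the exit of the tunnel. The other 4 were the paralogs *Rpl3l*, *Rpl10l*, *Rpl39l* and *Rps4y2*. The nearest called peak to these 15 genes lay at a median distance of 31402 bp in Pax6-HIGH cells, 196494 bp in Pax6-ON cells and 27352 bp in Pax6-OFF cells. The closest was that of *Rps15* in Pax6-HIGH cells, 3061 bp away. A peak within 5 kb was found for 4 of the 15 in Pax6-HIGH cells, 3 in Pax6-OFF cells and 0 in Pax6-ON cells.

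The paralogs with no peak are known from other tissues: *Rpl3l* from striated muscle, and *Rpl10l* and *Rpl39l* from the male germ line. For *Rpl10l* the nearest peak was 774932 bp away in Pax6-HIGH and 450185 bp in Pax6-ON cells. *Rpl3l* lay 3318 bp from a peak in Pax6-HIGH cells and 3270 bp in Pax6-OFF cells.

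Pax6-OFF cells alone had a peak at 4 members, *Rplp1*, *Rps16*, *Rps25* and *Rps27l* (4.76%, against 2.50% of all genes), and all were weak. Their pileups were 26 for *Rplp1*, 31 for *Rps16*, 34 for *Rps25* and 35 for *Rps27l*, against the lowest called value of 25 in that file. The lower bounds of their intervals, from 17.0 to 24.4, all lay below that value. *Rplp1* is part of the stalk that recruits elongation factors, and the summit of its peak lay 290 bp before the start. *Rps27l* is a paralog of *Rps27* known as a target of the tumour suppressor *Trp53*. The start of *Trappc4* lay within 1 kb of that of *Rps25*.

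The 26 members with a peak in Pax6-HIGH cells alone spanned a wide range. Their pileups ran from 31 for *Rps9* to 127 for *Rps20*, with a median of 47.5. *Rps20* (percentile 88.7), *Rpl32* (80.7), *Rps6* (76.9) and *Rps13* (75.5) were the highest. *Rps6*, the substrate of the S6 kinases, had 90 fragments (72.4 to 111). The others included *Rpl12*, *Rpl13*, *Rpl14*, *Rpl17*, *Rpl18*, *Rpl22*, *Rpl28*, *Rpl29*, *Rpl35a*, *Rpl36a*, *Rpl37a*, *Rpl39*, *Rps3*, *Rps7*, *Rps14*, *Rps15a*, *Rps24*, *Rps26* and *Rps27*. Their median of 47.5 compared with 58.5 fragments in Pax6-HIGH cells for the 28 members that also had a Pax6-OFF peak, and with 126 for the 11 with a peak in every line.

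The 28 members with a peak in Pax6-HIGH and Pax6-OFF cells had Pax6-OFF pileups from 26 (*Rpl7a*) to 65 (*Rpl36al*), with a median of 43. In Pax6-HIGH cells they ran from 29 (*Rpl19*) to 165 (*Rpl24*). *Rpl24* has 4 annotated starts, and the start used for its promoter sequence lay at chr16:55966388. The peaks taken for it lay at another start, at 55973529-55974006 in Pax6-HIGH cells and 55973681-55973990 in Pax6-OFF cells. Beside the genes named below, the group included *Rpl9*, *Rpl10*, *Rpl10a*, *Rpl13a*, *Rpl22l1*, *Rpl27*, *Rpl27a*, *Rpl31*, *Rpl34*, *Rpl35*, *Rpl36*, *Rpl38*, *Rpl7l1*, *Rps2*, *Rps3a*, *Rps10*, *Rps12*, *Rps18* and *Rps19*. *Rps12* had 109 fragments in Pax6-HIGH cells and 52 in Pax6-OFF cells. *Rps10* had 37 in each.

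The share of members with a second peak was larger where the Pax6-HIGH peak was higher, as it was for all genes. Of the 25 members whose Pax6-HIGH peak stood below the median of its file, 0 had a Pax6-ON peak, against 12.3% of all genes with a peak of that height. Between percentiles 50 and 75 it was 3 of 20 (15%, against 30.9% of all genes). Between 75 and 90 it was 3 of 12 (25%, against 54.8%), and from 90 upward it was 5 of 8 (62.5%, against 83.4%). The members' share was below that of all genes in each of these 4 bands of the Pax6-HIGH peak. For Pax6-OFF cells the same bands gave 40%, 65%, 66.7% and 100% of members, against 47.9%, 69.3%, 82.3% and 90.4% of all genes. With bands set by the Pax6-OFF peak, the members with a Pax6-ON peak were 2 of 26, 3 of 11, 4 of 4 and 2 of 2. Those shares were below all genes in the lower 2 bands (24.5% and 49.3%) and above them in the upper 2 (74.4% and 92.9%). In both sets of bands the 2 of highest peaks hold few members, and these differences have no test.

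**Figure D3:**
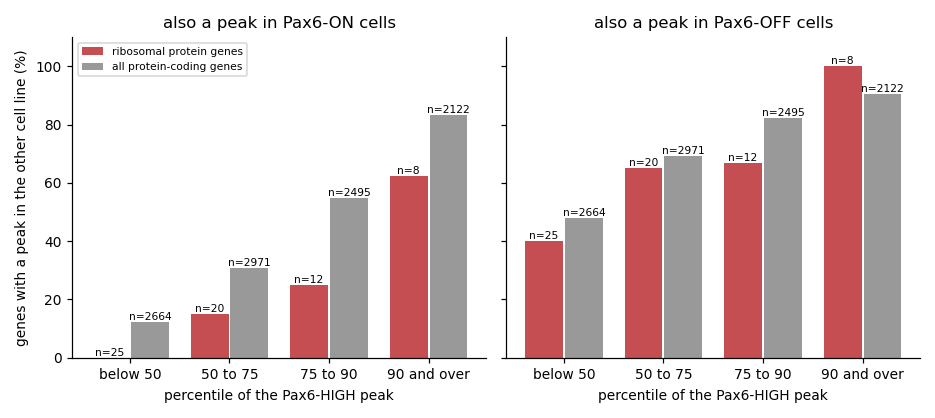
Bars give the percent of genes with a Pax6-HIGH peak that also had a peak in Pax6-ON (left) or Pax6-OFF cells (right), by the percentile of the Pax6-HIGH peak (x axis), with the number of genes above each bar. For Pax6-ON cells the members stand at 0, 15, 25 and 62.5% and all genes at 12.3, 30.9, 54.8 and 83.4%.

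Among the peaks that were called, those of members were lower by median than those of other genes in Pax6-HIGH and Pax6-OFF cells. The median percentile of the members' peaks was 56.4 in Pax6-HIGH cells (quartiles 32.6 and 80.7), against 71.6 for the other genes with a peak. In Pax6-OFF cells it was 36.6 (17.2 and 57.9), against 60.0. Below the median of the file stood 26 of 43 members in Pax6-OFF cells, where 3100 of 7987 among all genes did. The same held for 25 of 65 members in Pax6-HIGH cells and 2664 of 10252 among all genes. In Pax6-ON cells the median percentile was 47.9 (24.4 and 78.9) over 11 peaks, against 55.3. With the peaks that overlap a start it was 67.9, so no direction is given for Pax6-ON cells. The top 10% of pileup held 8 of the 65 Pax6-HIGH peaks of members, where 20.7% of all genes with a peak reached it. It held 2 of 11 in Pax6-ON cells (12.9% of all genes) and 2 of 43 in Pax6-OFF cells (12.5% of all genes). With fold enrichment in place of pileup, 5 members reached the top 10% in Pax6-OFF cells. The 8 of Pax6-HIGH cells were *Rpl37*, *Rpl7*, *Rps29*, *Rpl24*, *Rpl31*, *Rpl22l1*, *Rpl30* and *Rps23*.

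Where a member had a peak in 2 lines, a higher peak in one tended to go with a higher peak in the other. Spearman's rho of the pileups over the 39 members with a peak in Pax6-HIGH and Pax6-OFF cells was 0.464, and over 7267 other genes it was 0.512. Over the 11 members with a peak in every line it was 0.273 for Pax6-HIGH and Pax6-ON and 0.582 for Pax6-ON and Pax6-OFF cells, against 0.496 and 0.529 for other genes. The points share their libraries and are genes, not replicates.

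Peaks at members were also shorter by median than those of other genes in Pax6-HIGH and Pax6-OFF cells. The median length was 636 bp in Pax6-HIGH cells (742 bp for the other genes) and 368 bp in Pax6-OFF cells (568 bp). In Pax6-ON cells it was 432 bp over 11 peaks (459 bp), with an interval of 334 to 772 bp, so no direction is given there. With an equal number of peaks per line the members' Pax6-HIGH median was 824 bp, and that of the other genes was not computed. The longest member peak in each file was that of *Rpl7*, with 1619, 1154 and 1401 bp. The Pax6-HIGH peak was the longer one for 33 of the 39 members with a peak in Pax6-HIGH and Pax6-OFF cells (84.6%, against 77.9% of all genes). *Rps7* had the shortest Pax6-HIGH peak, of 238 bp.

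Summits lay just before the start, as at other promoters. The median distance from summit to nearest start was -53 bp in Pax6-HIGH cells and -65 bp in Pax6-OFF cells, against -35 bp for the other genes in both lines. A negative sign means upstream of the start. In Pax6-ON cells the median was -137 bp, against -51 bp, and 10 of the 11 summits lay upstream. The same 11 members had medians of -148 bp in Pax6-HIGH and -117 bp in Pax6-OFF cells, also further upstream than the medians of all members there. This holds for the set and not for each gene. In the order Pax6-HIGH, Pax6-ON and Pax6-OFF, *Rps23* had 22, -183 and 0 bp and *Rpl5* had -153, 39 and 2 bp. *Rps29* had -135, -137 and -135 bp. Within 100 bp of the start lay 41 of 65 summits in Pax6-HIGH cells, 3 of 11 in Pax6-ON cells and 27 of 43 in Pax6-OFF cells. Among all genes it was 5864 of 10252, 2528 of 4740 and 4667 of 7987. *Rpl35* differed, with its summits 437 and 385 bp downstream of the start in Pax6-HIGH and Pax6-OFF cells.

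**Figure D4:**
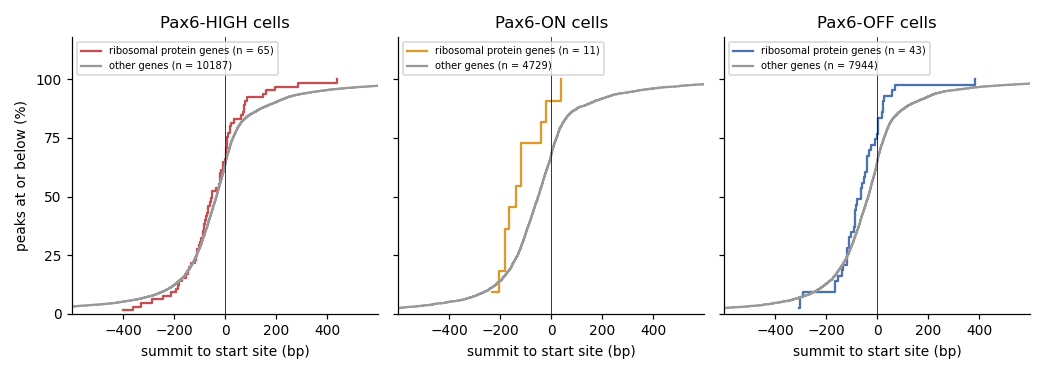
Lines give the cumulative percent of peaks (y axis) by the distance from summit to the nearest start site in bp (x axis, negative upstream) for members and for other genes in each cell line. Medians are -53, -137 and -65 bp for members and -35, -51 and -35 bp for other genes in Pax6-HIGH, Pax6-ON and Pax6-OFF cells.

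The stalk proteins, which form the flexible arm that binds translation factors, had no Pax6-ON peak. *Rplp0* had 55 fragments in Pax6-HIGH cells and 54 in Pax6-OFF cells, *Rplp2* had 60 and 36, and *Rplp1* had a peak in Pax6-OFF cells alone. *Rpsa*, which is known as the laminin receptor and also sits on the small subunit, had 66 fragments in Pax6-HIGH cells and 55 in Pax6-OFF cells. Of the 8 paralog genes, none had a peak in every line. *Rpl22l1* was strong in Pax6-HIGH cells with 158 fragments (134 to 185) and had 50 in Pax6-OFF cells. Its counterpart *Rpl22* had 69 fragments in Pax6-HIGH cells and no other peak. *Rpl36al*, which shares its promoter region with *Mgat2*, had 119 and 65 fragments. *Rpl7l1* had 40 and 47.

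Scaled pileups of Pax6-HIGH and Pax6-OFF cells could be compared for the 39 members with a peak in both. Each ratio was divided by the median ratio of the other genes on autosomes, which was 1.51. The members' median ratio was 1.02, with a range from 0.383 to 2.48. It was at least 1.5-fold higher in Pax6-HIGH cells for 6 members (15.4%), where 21.3% of all genes were. It was at least 1.5-fold lower for 8 members (20.5%), where 21.1% of all genes were. With this scaling, these shares were near or below those of all genes.

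The 6 higher members were *Rpl24* (2.48, interval 1.77 to 3.54), *Rpl31* (2.42, 1.73 to 3.46), *Rpl7* (2.29, 1.69 to 3.15), *Rps27a* (2.13, 1.42 to 3.27), *Rpl22l1* (2.09, 1.51 to 2.93) and *Rpl35* (1.76, 1.22 to 2.58). The *Rpl24* ratio is that of the peaks at its other start. The lowest were *Rpl10a* (0.383, 0.248 to 0.582), *Rpl21* (0.494, 0.350 to 0.695) and *Rpl7l1* (0.563, 0.360 to 0.877). *Rps18*, *Rpl19*, *Rpl27*, *Rps2* and *Rps10* made up the other 5, between 0.569 and 0.662. Several ratios followed their chromosome. On chromosome 1, where *Rpl7* and *Rpl31* lie, the other genes had a median ratio of 1.60. On chromosome 17 the 6 members with a ratio lay between 0.383 and 0.735, and the other genes had a median of 0.809. Divided by the median of their own chromosome, 8 members were higher (20.5%, against 14.3% of all genes) and 2 lower (5.13%, against 15.8%). The 2 were *Rpl10a* (0.473) and *Rpl21* (0.642). *Rps27a* rose to 2.69 and *Rpl7* came to 1.43. Scaled by the total of fragments instead, 20 were higher and 1 lower, where 52.4% and 3.71% of all genes were. The split of higher and lower calls thus moved with the scaling for members and for all genes.

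**Figure D5:**
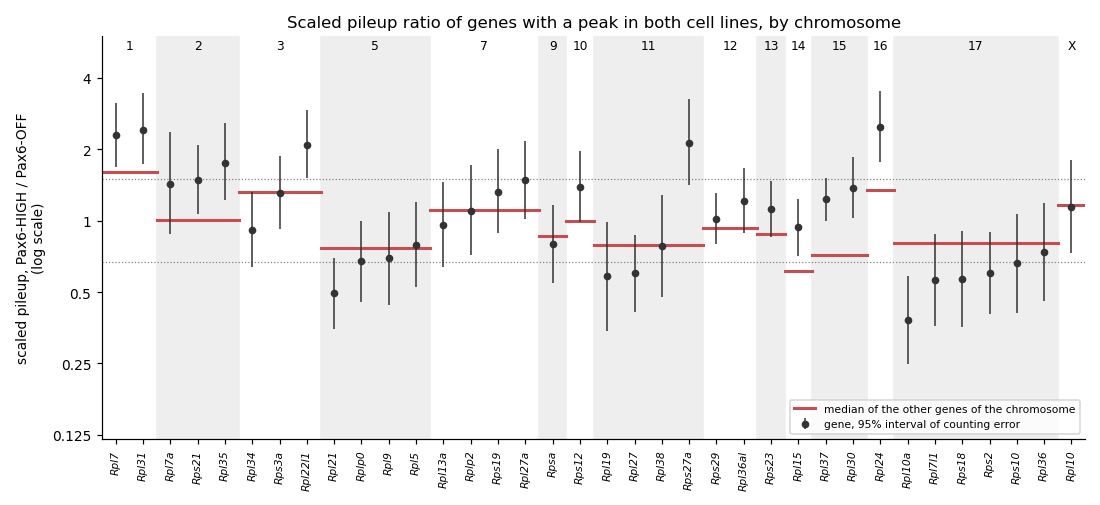
Points give the scaled pileup ratio of Pax6-HIGH over Pax6-OFF cells (y axis, log scale) with exact 95% intervals of counting error for 36 of the 39 members with a peak in both (x axis), ordered by chromosome (numbers at the top). Red bars give the median ratio of the other genes of the chromosome and dotted lines mark 1.5-fold; chromosome 1 stands at 1.60 and chromosome 17 at 0.809.

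The background around the peak moved with some of these ratios. MACS2 divides the pileup by a local background that has a floor for the file, and the background can be read back from pileup and fold enrichment. It lay at the floor of 11.8 fragments, within 1%, for 36 of the 65 Pax6-HIGH peaks of members (55.4%, against 34.6% of other genes). Over 1.5 times the floor lay 20% of the members' peaks and 34.2% of the others. It was 52.8 at *Rpl7*, 33.1 at *Rpl37* and 31.7 at *Rpl24*. At *Rpl7* it was 14.6 in Pax6-OFF and 14.2 in Pax6-ON cells. By fold enrichment, scaled in the same way, *Rpl7* was level between Pax6-HIGH and Pax6-OFF cells (0.906) and *Rpl24* fell to 1.24. *Rps27a* (1.85), *Rpl31* (1.80) and *Rpl22l1* (1.64) stayed at least 1.5-fold higher. The part of the local background in these ratios was not tested.

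The comparisons with Pax6-ON cells rested on the 11 members with a peak in every line. Pax6-HIGH over Pax6-ON cells gave 2 higher members, *Rpl7* (2.51, 1.80 to 3.57) and *Rpl30* (2.18, 1.53 to 3.17), and 2 lower ones, *Rpl21* (0.600, 0.414 to 0.871) and *Rpl5* (0.666, 0.444 to 1.00). Among all genes 18.6% were higher and 21.3% lower. *Rps21*, at 0.670, lay just inside the limit. Pax6-ON over Pax6-OFF cells gave 2 higher members, *Rps21* (2.04, 1.45 to 2.89) and *Rps27a* (1.80, 1.15 to 2.88), and 1 lower one, *Rpl30* (0.582, 0.386 to 0.869). Among all genes 16.3% were higher and 16.0% lower. With this scaling *Rpl37* and *Rps29* did not pass 1.5-fold in any pair of lines, with ratios from 0.965 to 1.23 and from 0.804 to 1.17. Divided by the median of the same chromosome, *Rpl37* came to 1.71 for Pax6-HIGH over Pax6-OFF and 1.63 for Pax6-ON over Pax6-OFF, and *Rps29* to 1.56 for the latter. By fold enrichment *Rpl37* stood at 0.584 for Pax6-HIGH over Pax6-ON. A member with a peak in fewer lines has no ratio here, and these pairs share their peak calls.

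Members were found on 19 of the chromosomes. Chromosome 7 held the most, 14, of which 13 had a peak in Pax6-HIGH, 7 in Pax6-OFF and 1 in Pax6-ON cells. The other genes of chromosome 7 had a peak in 36.2%, 25.5% and 12.2% of cases. The 5 members on chromosome 4, *Rpl11*, *Rpl22*, *Rps6* and *Rps20* among them, gave 4 peaks in Pax6-HIGH cells and 0 in both other lines, where the other genes had 48.4%, 34.8% (Pax6-OFF) and 29.2% (Pax6-ON). On chromosome 6, where the other genes with a peak in both had a median Pax6-HIGH over Pax6-OFF ratio of 2.07, *Rpl32* had 99 fragments in Pax6-HIGH cells alone and *Rps4y2* had no peak.

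The CpG content of the 84 promoters of members was near that of genes with a peak in every line. From 250 bases before to 50 after the start, the median ratio of observed to expected CpG was 0.850, against 0.555 for all genes, 0.816 for genes with a peak in every line and 0.822 for the mitochondrial ribosomal proteins. The 11 members with a peak in every line had a median of 0.685, below the 0.816 of all genes with such peaks. The median GC content was 56% for members and 55.7% for all genes. With a peak in every line it was 53.3% for members and 63% for all genes. The letters CCGGAAG were found on either strand in 27 of 84 promoters (32.1%), against 11.0% of all genes, 19.6% of the genes with a peak in every line and 36.8% of the mitochondrial ribosomal proteins. The word is thus no trait of the members alone. AAGATGG, a core letter run of YY1 sites, was found in 14.3% (all genes 6.69%, mitochondrial ribosomal proteins 18.4%, copies named as pseudogenes 30.9%). GGGCGG, known from Sp1 sites, was found in 53.6%, between the 44.9% of all genes and the 72.2% of genes with a peak in every line. TATAAA was found in 11.9% (all genes 13.3%) and GCGCATGC, known from NRF1 sites, in 3.57% (all genes 3.35%). CCGGAAG and AAGATGG share the letters AAG and can overlap. All words were searched on both strands.

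The letters stood in promoters with and without peaks. CCGGAAG stood in 4 of the 11 promoters with a peak in every line and in 5 of the 15 with none. A run of at least 8 pyrimidines from 30 bases before to 20 bases after the start was found in 32 members (38.1%). It was found in 19.6% of all genes and in 32.7% of the copies named as pseudogenes. Among members it stood in 2 of the 11 and in 5 of the 15. With other annotated starts of the same genes it was found in 29 to 44 members and in 19.2% to 19.9% of all genes, so the count depended on which start was taken. A match is a description of letters and not a bound site.

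Some members share their promoter region or host small nucleolar RNAs. A start of another protein-coding gene lay within 1 kb for 15 members. In the order Pax6-HIGH, Pax6-ON and Pax6-OFF, peaks were found at 12, 2 and 9 of these, against 53, 9 and 34 of the other 69. The 30 members with an annotated snoRNA gene inside had 24, 4 and 16 peaks, and the other 54 had 41, 7 and 27.

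Other parts of the translation machinery also had their fewest peaks in Pax6-ON cells, as all genes did (45.9%, 35.7% and 21.2% in Pax6-HIGH, Pax6-OFF and Pax6-ON cells). Of 76 mitochondrial ribosomal protein genes, which are made in the cytosol and imported, 61 had a peak in Pax6-HIGH, 48 in Pax6-OFF and 23 in Pax6-ON cells. All of these 23 had a peak in every line (30.3%, against 13.1% of the cytosolic members and 17.3% of all genes). Of 22 translation factors and other genes whose mRNAs carry oligopyrimidine tracts, 20 had a peak in Pax6-HIGH, 19 in Pax6-OFF and 8 in Pax6-ON cells. The 8 were *Eef1a1*, *Eif3e*, *Eif3f*, *Eif4b*, *Hnrnpa1*, *Nap1l1*, *Pabpc1* and *Ybx1*. Of 26 ribosome biogenesis genes the counts were 24, 18 and 5, and the 5 were *Dkc1*, *Gar1*, *Ncl*, *Rrp9* and *Rrs1*. Of members with a Pax6-HIGH peak, 16.9% also had one in Pax6-ON cells. In Pax6-ON cells the share with a peak was 30.3% for the mitochondrial ribosomal proteins, 36.4% for the translation factors and 19.2% for the biogenesis genes. Of genes with a Pax6-HIGH peak, the share with one in Pax6-ON cells was 37.7% for the mitochondrial ribosomal proteins and 42.7% for all genes.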

How the data were processed

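ATAC-seq was analysed in 3 mouse cell lines, with 2 samples of each, grouped by the cell line in the labels. The submitters' processing notes name Trim Galore 0.4.1, Bowtie2 2.2.6, SAMtools 1.6, MACS2 2.1.1, bedtools and the build mm9. The authors pooled both replicates of a line in 1 MACS2 call, and the deposited tables give for each peak its summit pileup (a signal in fragments, not scaled between lines), its fold enrichment (a ratio of pileup to local background) and the −log10 of its p-value and q-value. The deposited narrowPeak files hold the same peaks and were not used.

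Here, peaks were joined to protein-coding start sites of the mm9 (NCBIM37) annotation within 1 kb. Python 3.11.15, pandas 2.3.3, pysam 0.24.0, SciPy 1.17.1 and matplotlib 3.10.9 were used, and the join was tested on simulated data. The percentile of a peak is the percent of the file's peaks with a lower pileup. Ratios of pileups were divided by the median ratio of other autosomal genes with a peak in both lines, and 1.5-fold was the limit. Intervals are exact 95% intervals (Poisson for a pileup, Clopper-Pearson for a ratio) and cover counting error only. ATAC-seq fragments without molecular identifiers are not all independent molecules. With 1 call per line there was no test.

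Genes were named by rule: each member without a peak in at least 1 line, the 5 highest and 5 lowest by mean percentile among members with a peak in every line, up to 3 extreme ratios per direction and pair, the stalk proteins and *Rpsa*, the paralogs and members on chromosome 6. Other names were chosen after their values were seen. Members and lists were chosen with earlier results of these data known. Alternatives were the settings given in the closing section. The choice of start for the pyrimidine run was added after seeing the data. Some genes that this rule names are not reported here, singly or in the plots of single genes, and stay in the counts and medians.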

Additional observations from a re-analysis of the deposited data

How the results depend on the processing

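Over 23 results and 103 alternatives, 82 values stayed within set bounds and 21 moved out of them. The bound was 1.5 times for a count and the interval of the reported median for a median. Medians could thus shift widely and still count as within bounds. The Pax6-ON median percentile went from 47.9 (17.3 to 90.8) to 67.9 with peaks that overlap a start. The Pax6-OFF one went from 36.6 (29.5 to 55.9) to 47.4 by fold enrichment. With an equal number of peaks per line, members with a Pax6-HIGH peak came to 26 in place of 65 (27.7% and 45.9% of all genes). Those in the top 10% came to 1 each in Pax6-HIGH cells and in Pax6-OFF cells, and the median Pax6-HIGH length to 824 bp. By fold enrichment, 5 members reached the top 10% in Pax6-OFF cells. The shares of all genes in the top 10% were not computed for these alternatives. By fold enrichment 1 of 39 members was lower in Pax6-HIGH over Pax6-OFF cells (5.82% of all genes). In Pax6-HIGH over Pax6-ON cells 1 of 11 was higher (12.7% of all genes). Scaling by chromosome gave 2 of 39 lower for Pax6-HIGH over Pax6-OFF (15.8% of all genes) and 0 of 11 lower for Pax6-HIGH over Pax6-ON (18.3%). For Pax6-ON over Pax6-OFF it gave 4 of 11 higher (14.5% of all genes) and 0 lower (12.3%). Scaling by fragments gave 20 higher and 1 lower, 9 higher and 0 lower, and 1 higher and 5 lower for these pairs. All genes moved likewise, to 52.4% and 3.71%, 78.6% and 1.51%, and 4.81% and 38.9%. A limit of 2-fold gave 2 of 39 lower for Pax6-HIGH over Pax6-OFF (7.13% of all genes) and 0 of 11 lower for Pax6-HIGH over Pax6-ON (9.15%). For Pax6-ON over Pax6-OFF that limit gave 1 of 11 higher (4.96% of all genes) and 0 lower (3.95%). The higher counts left unnamed stayed within 1.5 times. Taking peaks within 250 bp or 5 kb, peaks that overlap a start, the nearest peak, a q-value under 0.001, starts of every transcript or core subunits alone moved none of the values they were run on by more than these bounds. Fewer peaks or a stricter limit lower a count by construction, and the cause of the other shifts was not tested.

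No paired analysis was possible because the replicates of each line were pooled in 1 peak call, and leaving out a replicate was not run for the same reason. Where no peak was called, closed chromatin and a signal too low to be called over its local background cannot be told apart.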

Other observations

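*Fau*, which encodes a ribosomal protein joined to a ubiquitin-like protein but carries another symbol, had 27 fragments in Pax6-HIGH cells, at a percentile of 0.571, and 48 in Pax6-OFF cells. It had no Pax6-ON peak.

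Among the 55 copies named as pseudogenes, 53 had no peak in any line. *Rpl21-ps7* had a Pax6-HIGH peak of 112 fragments with its summit at -339 bp from the start, and *Rpl21-ps3* had a Pax6-OFF peak of 50 fragments at -1062 bp.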
